A study of Mus musculus with 12 samples.

Results

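The genes described are 10 that encode thrombospondins and other matricellular proteins, namely Thbs1, Thbs2, Thbs3, Thbs4, Comp, Tnc, Postn, Fn1, Sparc and Sparcl1. They were chosen by gene family, through the transcript accession of each probe, and were selected on the processed signals of the same 4 groups, in that these signals were in view, and the low Thbs2 signal of late-passage LM8 cells was known at that point. Their differences between groups are therefore given as a description, with no test. All 10 were found, through 13 probes, among 20144 named genes with 26581 probes. The samples were RNA from Dunn, a mouse osteosarcoma cell line, and from LM8, a subline obtained from Dunn by selection in animals for metastasis, each at an early and at a late passage of culture. The groups were Dunn at passage 25 (early), Dunn at passage 86 (late), LM8 at passage 24 (early) and LM8 at passage 91 (late), with 3 arrays in each, listed here in the order of slides 1, 2 and 3. No agent was given to any of them, and all were grown in the same serum-containing medium after thawing. Late-passage cells had been grown on from early-passage cells of the same line, so each group stands for 1 lineage, and passage cannot be told apart from drift of that lineage. The sources used here do not say that the 3 arrays of a group came from separate cultures, so errors and p-values measure only the spread between these samples, which may be technical. The labels name mouse as the organism but call the lines human in their source field, and the arrays carry mouse probes.

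Matricellular proteins are secreted into the extracellular matrix but mainly modulate how cells attach, move and respond to growth factors, rather than forming the scaffold itself. Thrombospondins 1 and 2 are trimers whose type 1 repeats bind the receptor CD36 and restrain blood vessel growth, while thrombospondins 3, 4 and COMP (also called thrombospondin 5) are pentamers without those repeats and are best known from cartilage, tendon and bone. Tenascin C and periostin are induced in tissue remodelling, fibronectin is a matrix adhesive bound by integrins, and SPARC (osteonectin) is an abundant protein of bone matrix with SPARC-like 1 as its closest relative. In bone, osteoblasts make several of these proteins.

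Each level below is the log2 processed signal of 1 probe minus the 75th percentile of that array on the log2 scale, so a value of 0 lies at that percentile, and levels of different genes are not compared because each probe binds with its own efficiency. A fitted difference is in log2 units with its standard error (SE), and each comparison also has a value within each of the 3 slides, because every slide carried 1 array of each group. Each group kept its place on the slides, so place and group cannot be told apart. The 75th percentile of the signal ranged from 253 to 1699 over the 12 arrays, and 39.1% to 59.7% of probes were well above background. The scanner software makes that call for each spot, and it was combined over the unmarked spots of a probe. The slide 1 arrays of Dunn stood apart. The early-passage one had a median local background of 87 against 22.5 to 34 elsewhere, and the late-passage one correlated with its replicates at 0.919 and 0.923 while those correlated with each other at 0.986. Between groups the median over all measured probes was shifted. Over probes well above background it was -0.28 for late versus early Dunn, -0.05 for late versus early LM8, -0.48 for LM8 versus Dunn at early passage and -0.25 at late passage, so differences relative to that median are added where they matter. Of 7 osteoblastic markers, 6 were measured, and Runx2, Sp7, Col1a1 and Ibsp were well above background on every array of every group. Of 4 leukocyte or macrophage markers, 3 were measured, and only Csf1r passed on all arrays of a group. None of 4 epithelial markers did, and of 3 endothelial markers Kdr did, joined by Pecam1 in late LM8.

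Among the thrombospondins Thbs2 had the widest range. In early-passage LM8 its 3 levels were 0.04, -0.03 and -1.23, and in late-passage LM8 they were -8.15, -7.07 and -8.47. In early-passage Dunn they were -4.79, -7.06 and -5.97, and in late-passage Dunn -3.51, -7.77 and -7.61. Thbs2 was well above background on the 3 arrays of early LM8 and on none of the other 9, and the early LM8 levels did not overlap with those of any other group. The processed signals before scaling were 812, 1125 and 460 in early LM8 and 3.64, 12.7 and 3.51 in late LM8. Because late LM8 gave only a bound, Thbs2 was at least 78.0-fold lower in late than in early LM8, and within the slides the log2 differences were -8.19, -7.04 and -7.23. Early LM8 was at least 17.8-fold higher than early Dunn, with within-slide log2 differences of 4.83, 7.03 and 4.74. In these bounds each dim array counted at its lowest signal well above background, or at the Thbs2 signal itself where that was higher. That limit is not strict. On the early Dunn array of slide 1 it was -3.39, and Comp at -2.01 was still not called well above background. Folds given as at least, here and below, hold by this rule only. The within-slide differences of Thbs2 used the dim signals as they were, none of them well above background, so they show direction and not size. No fold is given between the late-passage lines or between the Dunn passages, since Thbs2 was not well above background in any of those groups. From cell pools such as these, fewer cells with the transcript and less transcript per cell cannot be told apart.

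**Figure D1:**
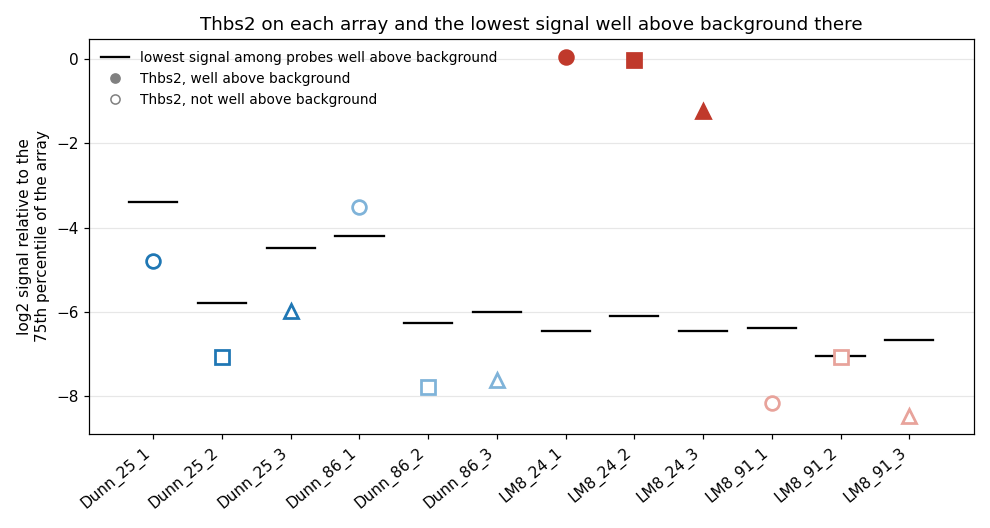
Thbs2 level on each of the 12 arrays, as log2 processed signal minus the array's 75th percentile (y axis), named by line, passage and replicate (x axis); filled points are well above background, open points are not, and each horizontal line is that array's lowest signal well above background. The 3 early-passage LM8 arrays sit between -1.23 and 0.04, and the other 9 are not well above background, from -8.47 to -3.51.

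The late Dunn array of slide 1, at -3.51, lay above that array's lowest well-above-background signal of -4.19, although the software did not call it well above background. The late LM8 array of slide 2, at -7.07, lay close to its own limit of -7.05. The other 7 lay below the limit of their own array.

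The upstream sequence is printed for Thbs2, whose signal was above background in 1 group, for Sparc, whose level was high in all 4 groups, and for Thbs4, which was above background in none. The windows are the 250 bases before the annotated gene start, read 5′ to 3′ on the strand of the gene from RefSeq (GRCm38.p6), with each CG dinucleotide in capitals. The Thbs2 window is chr17:14694263-14694512, that of Sparc chr11:55420081-55420330 and that of Thbs4 chr13:92794819-92795068, all on the minus strand.
Thbs2: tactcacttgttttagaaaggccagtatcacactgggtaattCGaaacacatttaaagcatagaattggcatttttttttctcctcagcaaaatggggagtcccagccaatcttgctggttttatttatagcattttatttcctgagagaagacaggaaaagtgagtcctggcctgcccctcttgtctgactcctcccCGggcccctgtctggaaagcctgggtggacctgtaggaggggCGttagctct
Sparc: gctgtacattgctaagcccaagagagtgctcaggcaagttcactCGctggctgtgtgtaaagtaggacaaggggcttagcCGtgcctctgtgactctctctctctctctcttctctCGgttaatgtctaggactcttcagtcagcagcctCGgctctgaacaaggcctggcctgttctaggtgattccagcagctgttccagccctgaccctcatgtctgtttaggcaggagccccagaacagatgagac
Thbs4: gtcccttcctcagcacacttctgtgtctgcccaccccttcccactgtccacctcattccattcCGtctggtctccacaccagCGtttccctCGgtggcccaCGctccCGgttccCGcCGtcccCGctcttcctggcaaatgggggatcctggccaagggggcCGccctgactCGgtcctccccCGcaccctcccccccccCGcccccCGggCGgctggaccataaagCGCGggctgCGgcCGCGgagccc
The Thbs2 window held 3 CG dinucleotides, and 37.8% of 32851 promoter windows of the same length held no more than that. The Sparc window held 4, a number that 44.4% of windows did not exceed, and the Thbs4 window held 19, which 82.1% did not exceed. Searched on both strands, TATAAA occurred 1 time in the Thbs2 window and CCAAT 2 times, and GGGCGG occurred 3 times in the Thbs4 window. Of all windows, 12.4% held TATAAA, 33.8% CCAAT, 32.7% GGGCGG and 4.46% TGACTCA, which was in none of these 3 windows. The arrays did not measure promoters, so the windows show only what sequence lies before each gene.

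Thbs1 encodes the founding member of the family, an activator of latent TGF-beta and a ligand of CD36 and CD47. Its levels were 2.33 and 0.54 in early Dunn, 2.65, 3.54 and 3.13 in late Dunn, 3.05, 3.71 and 3.25 in early LM8, and 3.12, 3.87 and 4.04 in late LM8. The spot of early Dunn on slide 3 carried an outlier mark and was left out, and with marked spots kept the early Dunn levels were 2.27, 0.22 and 2.34. Both ways early Dunn lay below the 9 other arrays, and the other 3 groups overlapped with one another. The mean was 1.44 ± 1.27 (SD, n = 2) in early Dunn, 3.11 ± 0.44 (SD, n = 3) in late Dunn, 3.34 ± 0.34 in early LM8 and 3.68 ± 0.49 in late LM8. Late Dunn was higher than early Dunn by 1.67 (SE 0.68), with 0.32 and 3.0 on the slides that gave a value. Early LM8 was higher than early Dunn by 1.90 (SE 0.61), with 0.72 and 3.17 within slides. The early Dunn array of slide 2 was the lowest of all and set much of both differences, while the difference between LM8 passages was 0.34 (SE 0.31).

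**Figure D2:**
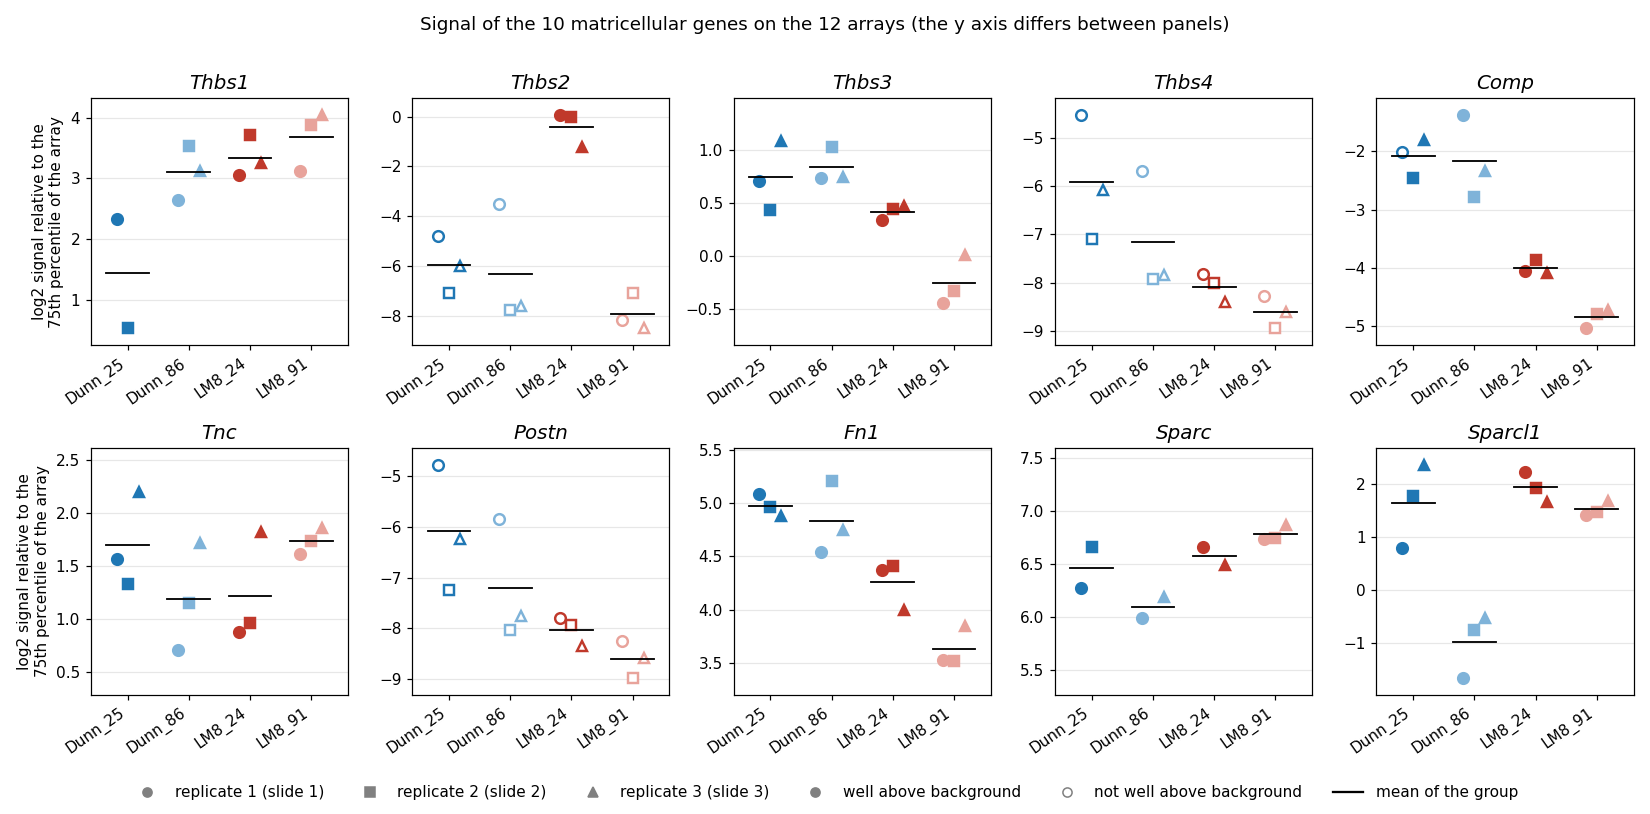
Level of each of the 10 genes on each array, as log2 processed signal minus the array's 75th percentile (y axis), for the 4 groups (x axis); filled points are well above background, open points are not, and dashes are group means. Thbs2 is filled in early LM8 only, Thbs4 and Postn on no array, and Sparcl1 is lowest on the 3 late Dunn arrays, from -1.64 to -0.52.

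The pentameric thrombospondins differed from one another in pattern. Thbs3 is transcribed in bone and many other tissues, and its levels were 0.71, 0.43 and 1.09 in early Dunn, 0.74, 1.03 and 0.75 in late Dunn, 0.34, 0.44 and 0.47 in early LM8, and -0.44, -0.33 and 0.01 in late LM8. Late LM8 lay below all 9 other arrays. It was lower than early LM8 by 0.67 (SE 0.20), with within-slide differences of -0.78, -0.77 and -0.46, and 2.13-fold lower than late Dunn, a log2 difference of -1.09 (SE 0.24) or -0.84 relative to the median. Early and late Dunn overlapped, with a difference of 0.09 (SE 0.32). A second Thbs3 probe was also lower in late than in early LM8, by 0.52 (SE 0.23) with no overlap, but its late LM8 levels overlapped with both Dunn groups, with group means of -0.16 ± 0.52, 0.19 ± 0.95, 0.48 ± 0.18 and -0.04 ± 0.31 (SD, n = 3) in early Dunn, late Dunn, early LM8 and late LM8.

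Comp, which encodes the cartilage oligomeric matrix protein that binds collagens, separated the lines on the scaled levels. Its levels were -2.01, -2.45 and -1.80 in early Dunn and -1.38, -2.79 and -2.34 in late Dunn. They were -4.05, -3.87 and -4.09 in early LM8 and -5.03, -4.80 and -4.73 in late LM8. It was well above background on 11 of 12 arrays, the early Dunn array of slide 1 being the exception. The 6 LM8 arrays lay below the 6 Dunn arrays, and the late LM8 arrays lay below the early ones, while the Dunn passages overlapped. At early passage LM8 was 3.77-fold lower than Dunn, with a log2 difference of -1.92 (SE 0.32). Within slides it was -2.04, -1.42 and -2.29. Relative to the median the difference was -1.43, and it was -0.43 under the alternative that shrank it most. Before scaling, the processed signals were 83.6, 95.4 and 72.8 in early Dunn. In early LM8 they were 47.5, 78.7 and 63.5, so the unscaled signals overlapped. At late passage LM8 was 6.42-fold lower, with a difference of -2.68 (SE 0.41) and within-slide differences of -3.65, -2.0 and -2.39. Relative to the median that was -2.43, and it was -1.21 under the alternative that shrank it most. Late LM8 was lower than early LM8 by 0.85 (SE 0.19), with -0.98, -0.93 and -0.64 within slides.

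Fn1 encodes fibronectin, which cells bind through integrins to spread and to assemble other matrix proteins. Its levels were 5.09, 4.97 and 4.88 in early Dunn and 4.54, 5.21 and 4.75 in late Dunn. They were 4.37, 4.41 and 3.99 in early LM8 and 3.52, 3.51 and 3.85 in late LM8. The order of the group means, with marked spots left out, was that of Comp. The Dunn passages overlapped, and each LM8 group lay below both Dunn groups, with no overlap between early and late LM8. Late LM8 was 2.31-fold lower than late Dunn, a log2 difference of -1.20 (SE 0.27) or -0.95 relative to the median, and within slides -1.02, -1.69 and -0.90. At early passage the difference between the lines was -0.72 (SE 0.30), and -0.24 relative to the median. It turned to 0.77 with the deposited table, which is not scaled between arrays. Late LM8 was lower than early LM8 by 0.63 (SE 0.22), with -0.85, -0.90 and -0.15 within slides.

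Like Comp and Fn1, the summed markers of fibroblasts and perivascular cells were lower in both LM8 groups than in both Dunn groups. Late LM8 was lowest in each case. The sum was also lower in late than in early Dunn, but Comp and Fn1 overlapped there. With marked spots kept, as in the sum, the Dunn means were -2.35 early and -2.28 late for Comp, and 4.72 and 4.73 for Fn1. All 4 (Pdgfra, Pdgfrb, Acta2 and Des) were measured, and none was below background on every array of a group. The signals of the 4 probes were added although each binds with its own efficiency, so the sum is no measure of cell content. Their summed linear level, with marked spots kept and in multiples of the 75th percentile, was 85.7 to 183 in early Dunn, 48.7 to 79.9 in late Dunn, 14.8 to 32.7 in early LM8 and 3.04 to 3.47 in late LM8. Most of that sum in the first 3 groups was Acta2, smooth muscle actin. With marked spots left out, its mean log2 level was 7.63 (n = 2), 5.98, 4.43 and 0.39 (n = 3 each) in that order. Pdgfrb had the same order, while Pdgfra was highest in early LM8 (0.79) and Des lowest in early Dunn (-3.89). Acta2 was the 1 marker of the 4 that passed the adjusted threshold of 0.05 by limma, lower in late versus early LM8 and lower in LM8 than in Dunn at both passages. The part of these markers in the Comp and Fn1 differences was not tested.

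Thbs4, a thrombospondin of tendon, muscle and nervous tissue, was not well above background on any of the 12 arrays, and neither was Postn, which encodes periostin of the periosteum and periodontal ligament. Their group means, which have no order below background, ran from -8.60 to -5.91 for Thbs4 and from -8.61 to -6.09 for Postn.

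Tnc encodes tenascin C, a large hexameric protein of wound and tumour matrix. Its levels were 1.57, 1.33 and 2.20 in early Dunn, 0.71, 1.15 and 1.72 in late Dunn, 0.88, 0.96 and 1.82 in early LM8, and 1.61, 1.74 and 1.86 in late LM8. The ranges of all neighbouring groups overlapped. Late LM8 exceeded early LM8 by 0.52 (SE 0.29), while late Dunn was below early Dunn by a log2 difference of -0.50 (SE 0.42). A second Tnc probe gave the opposite sign for the Dunn passages, 0.81, and for LM8 versus Dunn at early passage, 1.58 against -0.48 with the brighter probe, so no order of the groups is given.

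Sparc and Sparcl1 differed in pattern. Sparc levels were 6.27 and 6.66 in early Dunn, 5.99 and 6.19 in late Dunn, 6.66 and 6.49 in early LM8, and 6.74, 6.75 and 6.87 in late LM8, with 1 spot marked as an outlier and left out in each of the first 3 groups. The late LM8 arrays were above all others, and the late Dunn arrays below all others. With the marked spots kept, the added values were 6.48 for early Dunn, 6.12 for late Dunn and 6.38 for early LM8, and both ends stayed in place, although the late LM8 array of slide 2 (6.65) then lay next to the early LM8 array of slide 1 (6.64). Late LM8 exceeded late Dunn by 0.69 (SE 0.25), or 1.62-fold, and the other differences were at most 0.37 in size. A dimmer second Sparc probe had overlapping groups, with means of -2.93 ± 0.09, -3.14 ± 1.21, -3.43 ± 0.80 and -2.62 ± 0.93 (SD, n = 3) in early Dunn, late Dunn, early LM8 and late LM8, and differed by 0.80 (SE 0.57) between the LM8 passages.

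Sparcl1 encodes SPARC-like 1 (hevin), an anti-adhesive glycoprotein, and it was the member that differed most between the Dunn passages. Its levels were 0.79, 1.76 and 2.35 in early Dunn and -1.64, -0.76 and -0.52 in late Dunn. They were 2.23, 1.92 and 1.65 in early LM8 and 1.42, 1.48 and 1.68 in late LM8. Late Dunn lay below all 9 other arrays, and the other 3 groups overlapped. The means were 1.63 ± 0.79, -0.97 ± 0.59, 1.93 ± 0.29 and 1.52 ± 0.13 (SD, n = 3) in early Dunn, late Dunn, early LM8 and late LM8. Late Dunn was 6.10-fold lower than early Dunn, a log2 difference of -2.61 (SE 0.55) or -2.33 relative to the median, and the slides gave -2.43, -2.52 and -2.87. Late LM8 was 5.65-fold higher than late Dunn, a difference of 2.50 (SE 0.36) or 2.75 relative to the median, with 3.06, 2.24 and 2.20 within slides. Between the lines at early passage the difference was 0.30 (SE 0.46), and between the LM8 passages it was -0.41 (SE 0.22).

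**Figure D3:**
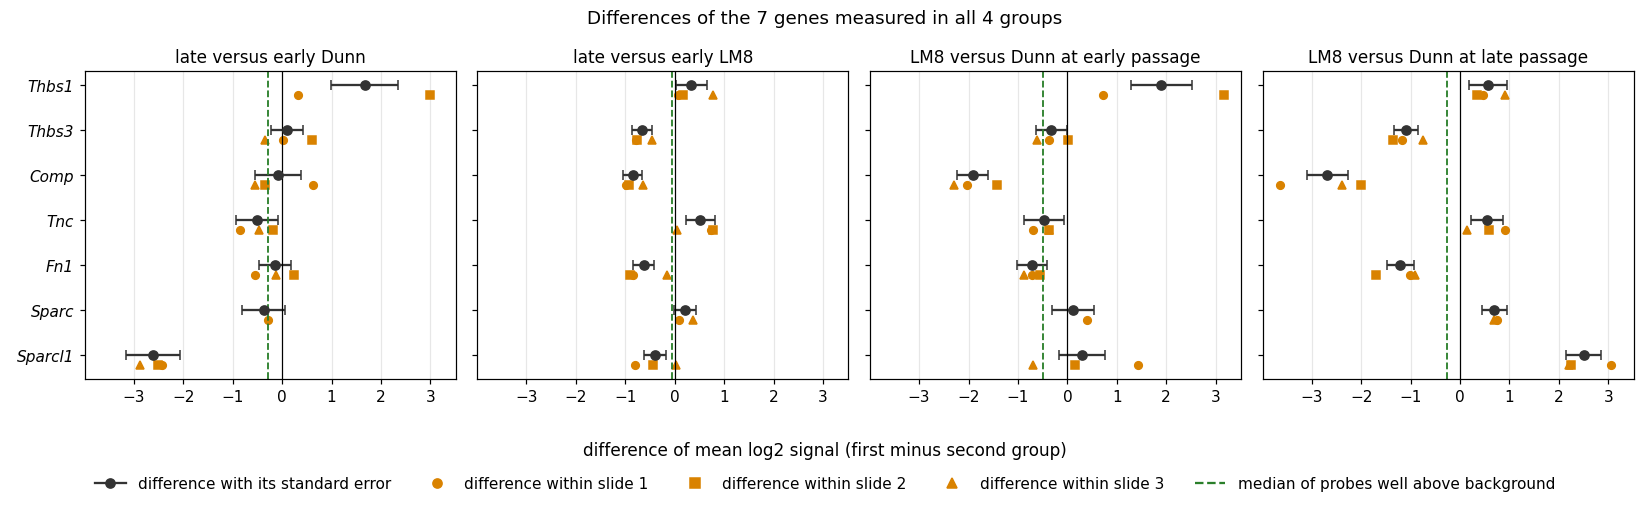
Fitted log2 differences (x axis) of the 7 genes measured in all groups (y axis) in the 4 comparisons, with SE as bars; orange markers are the differences within each slide, and the dashed line is the median of all probes well above background. Sparcl1 lies at -2.61 for late versus early Dunn and at 2.50 for LM8 versus Dunn at late passage, and Comp lies left of 0 in both comparisons of the lines.

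Each comparison was also read by counts, first at an adjusted p under 0.05 in the limma fit over all probes, then by the rule of the study, over 2-fold with an unadjusted p under 0.05. The members were chosen with these contrasts known, so the counts are set beside the share of all genes called and nothing is read from them. For late versus early Dunn, 0 of 10 members passed the adjusted threshold by limma, against 0.00497% of all genes, and 0 by the methods' t-test after adjustment. The count at an unadjusted p under 0.05 was 1, given without a share of all genes and not read further. By the 2-fold rule it was 1, Sparcl1, against 4.97% of all genes. For late versus early LM8, Thbs2 was the 1 member called by either rule, against 2.79% and 7.37% of all genes. For LM8 versus Dunn at early passage, the adjusted threshold counted Comp and Thbs2, against 4.66% of all genes, and with the slide as a block only Thbs2. By the 2-fold rule 5 were, Comp, Postn, Thbs1, Thbs2 and Thbs4, against 37.3% of all genes, Postn and Thbs4 being below background in both groups. Leaving out 1 array moved the adjusted count for early passage between 0 and 4, with 0 without the third early Dunn array or the first early LM8 array, and 4 without the second early Dunn array.

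For LM8 versus Dunn at late passage the adjusted threshold counted Comp and Sparcl1, against 3.85% of all genes, and no member with the slide as a block. The 2-fold rule counted Comp, Fn1, Sparcl1 and Thbs3, against 13.7%. Here the adjusted count was 0 without the third late Dunn array or any 1 of the late LM8 arrays, 1 without the second late Dunn array and 4 without the first. The passage change itself was compared between the lines by an interaction term over all 12 arrays. No interaction value is given for Thbs2, which was below background in 3 of the 4 groups. The change in LM8 minus that in Dunn was 2.20 (SE 0.59) for Sparcl1, 1.02 (SE 0.51) for the brighter Tnc probe, with -0.68 (SE 0.84) for the other, and -1.33 (SE 0.73) for Thbs1. None of the 10 passed the adjusted threshold, at which 0.616% of all genes were called. The count at an unadjusted p under 0.05 was 3, Thbs2 among them, given without a share of all genes and not read further. The 2-fold rule counted Sparcl1 and, on values mostly below background, Thbs2, against 5.25% of all genes. Median member differences were -0.37, -0.55, -0.40 and -1.15 in the Dunn passage, LM8 passage, early line and late line comparisons, beside -0.35, -0.20, -0.77 and -0.57 over all genes. These medians include Thbs4 and Postn, and for the Dunn passages and the late lines also Thbs2, on values below background. Of the members measured in all groups, Thbs1, Tnc, Sparc and Sparcl1 were higher in late LM8 than in late Dunn, and Comp, Fn1 and Thbs3 lower. The medians are therefore not read as a shift of the members. The comparisons share groups of arrays in pairs, so they are not independent of each other.

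Lists of related genes were read from the same fits, 60 genes in all. For late versus early Dunn none of the 60 passed the adjusted threshold by limma or by the methods' t-test, against 0.00497% of all genes by limma. With so few genes called at all, nothing is read from that count. At an unadjusted p under 0.05 there were 9, given without a share of all genes and not read further. Of 20 other matricellular proteins, 5 passed for late versus early LM8, 1 higher and 4 lower, against 2.79% of all genes, and the list's median difference was -0.60 beside -0.20 over all genes. Tgfbi, which encodes a TGF-beta-induced adhesion protein, fell by 2.15 (SE 0.18, limma adjusted p = 0.0019). Ccn2, connective tissue growth factor, fell by 1.73 (SE 0.18, limma adjusted p = 0.00476), and Fbln5, an elastic fibre protein, fell by 1.26 (SE 0.21, limma adjusted p = 0.0322). Smoc1, a calcium-binding relative of SPARC, was well above background in late but not in early LM8 and was at least 4.72-fold higher (limma adjusted p = 0.0013). Spock2, the fifth, is named only to complete the count and was well above background on 1 array of early LM8. With the slide as a block Fbln5 and Spock2 were lost, with limma adjusted p of 0.0772 and 0.0513, and without slide 1 the same 2 as well as Tgfbi (0.0511) and Ccn2 (0.0942) were. With any 1 array left out, Tgfbi, Ccn2 and Smoc1 still passed, although Smoc1 was lost with 1 fit over all 12 arrays and with normexp (adjusted p up to 0.308) and Ccn2 with the deposited table (0.145), and Fbln5 was lost without the first or second early LM8 array or any late LM8 array, its adjusted p reaching 0.425 over all alternatives.

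Between the lines, 3 genes of this list passed at early passage and 3 at late passage, against 4.66% and 3.85% of all genes, and Tgfbi and Ccn5 passed at both. Tgfbi was higher in LM8 by 2.68 (SE 0.28, limma adjusted p = 0.00524) at early passage and by 2.0 (SE 0.21, limma adjusted p = 0.0115) at late passage. At early passage the other 2 were Fstl1, higher by 2.62 (limma adjusted p = 0.0472), and Ccn5, a CCN family member, which was lower with a log2 difference of -2.43 (limma adjusted p = 0.0453) and was well above background on 2 of 3 early Dunn arrays. At late passage the other 2 were Ccn5, at -2.02 (limma adjusted p = 0.0287), and Ccn1, a CCN family adhesion protein, at -1.91 (limma adjusted p = 0.0311). The list medians were -1.11 and -0.88, beside -0.77 and -0.57 over all genes. None of these passed with the slide as a block, where the limma adjusted p of Tgfbi was 0.0532 at early and 0.107 at late passage. Tgfbi was also lost at early passage without the first early LM8 array, and at late passage without the third late Dunn array or any late LM8 array, with adjusted p no higher than those of the block for late and 0.0533 for early passage. Ccn1, Ccn5 and Fstl1 were lost without any 1 array of the LM8 group compared, and over all alternatives their adjusted p reached 0.282 for Ccn1, 0.366 and 0.533 for Ccn5 at early and late passage, and 0.206 for Fstl1.

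Of 18 receptors, 3 passed for late versus early LM8, against 2.79% of all genes, with a list median of -0.36 beside -0.20 over all genes. For LM8 versus Dunn 2 passed at early passage, against 4.66% of all genes, and 5 at late passage, against 3.85%, all lower in LM8. The list medians there were -0.86 and -0.91, beside -0.77 and -0.57 over all genes. Stab1, which encodes stabilin 1, a scavenger receptor that takes up SPARC, was well above background in early but not late LM8 and was at least 13.1-fold lower in late LM8 (limma adjusted p = 7.65e-04). Cd36, the receptor of the thrombospondin type 1 repeats, rose by 1.8 (SE 0.32, limma adjusted p = 0.0422), and passed under 6 of 16 alternatives, being lost without the first or second early LM8 array or any late LM8 array. The third, Ptprz1, was below background in both groups and has no fold. Cd36 was lower in LM8 than in Dunn at early passage, with a log2 difference of -3.89 (limma adjusted p = 0.00785) and 2 of 3 early LM8 arrays well above background, and at late passage, with -2.82 (limma adjusted p = 0.0101). Itga3, an integrin subunit of laminin receptors that also binds thrombospondin 1, was lower in LM8 by the same fits, at -2.30 early (limma adjusted p = 0.0139) and -2.75 late (limma adjusted p = 0.00693). At late passage Itga8, an integrin subunit that binds fibronectin and tenascin C, was lower as well, at -2.88 (limma adjusted p = 0.00695). Itgb3, the beta subunit of the vitronectin receptor, was at least 6.47-fold lower in late LM8 than in late Dunn (limma adjusted p = 0.00203), where it was well above background on 2 of 3 arrays. Ptprz1, the fifth, was so on 1. With the slide as a block Cd36 (limma adjusted p = 0.0316) still passed at early passage and Itga3 (0.0782) did not, and at late passage none of the 5 passed. With 1 array left out, Stab1 and Itgb3 still passed, but Stab1 was lost with 1 fit over all 12 arrays and with a floor on dim signals (adjusted p up to 0.208), and Itgb3 with the mean of its probes and with quantile normalization (up to 0.148). At early passage Cd36 and Itga3 were lost without the third early Dunn array or the first early LM8 array, and Itga3 also without either other early LM8 array. At late passage Itga3 and Itga8 were lost without the late LM8 array of slide 2 or 3 and Cd36 without any late LM8 array, with adjusted p over all alternatives of at most 0.116, 0.103 and 0.131.

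Of 11 enzymes that act on these proteins or their matrix, 0 passed between the passages of either line by limma, against 0.00497% of all genes in Dunn and 2.79% in LM8. At an unadjusted p under 0.05 there were 0 in Dunn and 5 in LM8, given without a share of all genes and not read further. Between the lines 2 passed at early passage, against 4.66% of all genes, and 1 at late passage, against 3.85%. Mmp2, gelatinase A, was higher in LM8 by 3.20 at early passage (SE 0.29, limma adjusted p = 0.00311) and by 2.93 at late passage (SE 0.22, limma adjusted p = 0.00388). At early passage it passed under each of 17 alternatives, and at late passage under 16 of 17, the slide block giving 0.0711. Htra1, a secreted serine protease, was lower in LM8 at early passage by a log2 difference of -1.97 (limma adjusted p = 0.0317, and 0.0812 with the block). Of 11 regulators of the TGF-beta, SRF and YAP pathways, 1 passed in any comparison, Srf, at late passage between the lines, against 3.85% of all genes there. It encodes serum response factor and was lower in late LM8 than in late Dunn at -1.48 (limma adjusted p = 0.0358, and 0.174 with the block). With 1 array left out, Htra1 was lost without the third early Dunn array or any early LM8 array, and Srf without the late Dunn array of slide 2 or 3 or any late LM8 array, with adjusted p reaching 0.512 and 0.501 over all alternatives.

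**Figure D4:**
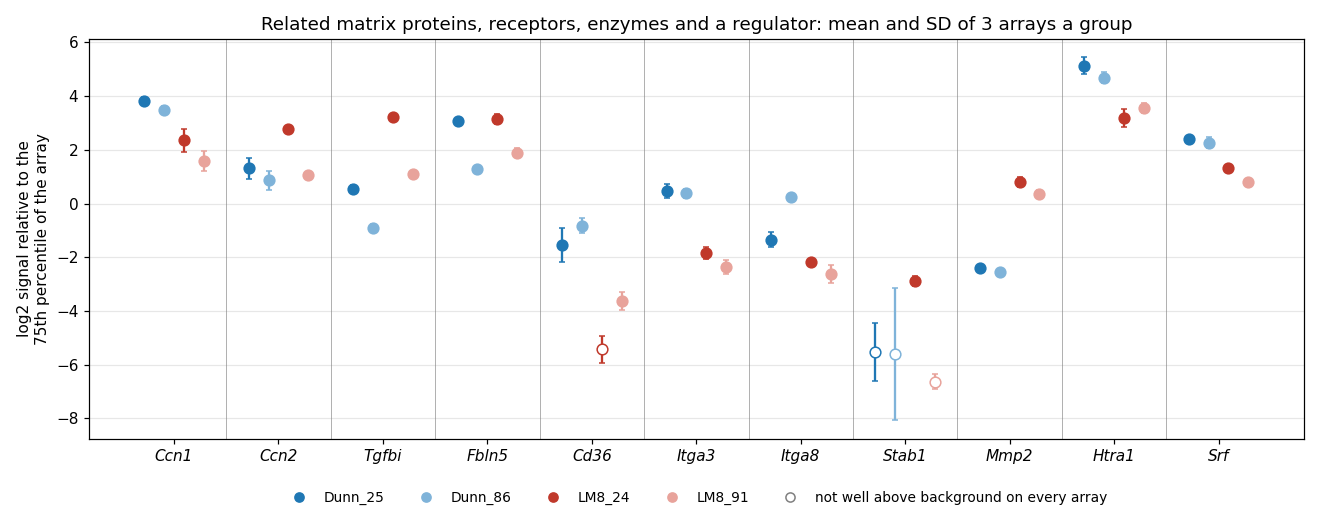
Mean level of 11 genes of the receptor, enzyme, regulator and matricellular lists in the 4 groups, as log2 processed signal minus the array's 75th percentile (y axis), with the SD of 3 arrays as bars. Mmp2 is near 0.80 and 0.36 in the LM8 groups and near -2.40 and -2.56 in the Dunn groups, and Cd36 is near -5.43 and -3.64 in the LM8 groups and near -1.54 and -0.82 in the Dunn groups.

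The genes whose levels followed those of Thbs2 most closely over the 12 arrays, among 11294 genes, were Zfp462 (Pearson r = 0.976), Cnmd (0.968), Fam131a (0.965), Tyrp1 (0.962) and Prdm6 (0.957), all of them well above background on early LM8 arrays only. A gene entered this ranking if it was well above background on all arrays of at least 1 group. These genes entered through early LM8 alone, the group in which Thbs2 was high. Their r values thus rest on that group against values below background, and nothing further is read from them. For Sparcl1 they were Tmem67 (0.958), Cdca7l (0.958), Trim8 (0.957), Pld2 (0.946) and Fbxo33 (0.944). The arrays of 1 slide share a hybridisation, and the values are a ranking of likeness over 4 groups of 3 arrays, without a test.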

How the data were processed

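RNA of 12 samples was hybridised to 1-colour Agilent mouse arrays, 4 arrays on each of 3 slides. Per the file headers, the authors extracted spots with Agilent Feature Extraction (version 10.7.3), and the deposited intensity values are processed signals, corrected for background by that software. The labels and the methods name different RNA kits. The authors also deposited a table of the same signals, unscaled and on a linear scale, which matched the scanner files within 0.497% and whose column medians on the log2 scale ran from 3.04 to 6.35; it was used as an alternative.

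Control spots and spots marked as outliers were left out, spots of a probe were averaged, and log2 signals were set relative to each array's 75th percentile. Fits of the groups compared over all 39429 probes used limma (version 3.58.1, R 4.3.3) with lmFit, eBayes and Benjamini-Hochberg adjustment, and the interaction used all 12 arrays. Calls were made at an adjusted p under 0.05, and at over 2-fold with an unadjusted p under 0.05. The scripts were tested on simulated data. Probes took gene names through their accessions (67.4% of probes matched RefSeq, GRCm38.p6), and each gene was read by its probe with the highest mean. No spot was saturated, and the number of arrays limits the precision.

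Members and lists were chosen with earlier results of these data known. All 10 members were named. Of the lists, up to 4 called genes per comparison were named, those with the largest differences among genes well above background on every array of the higher group, and others complete a count. Likeness was Pearson's r over the 12 arrays, over genes well above background on 3 arrays of any group. Promoter sequences came from RefSeq, for 6 of the 10 members. Thbs1, Comp, Fn1 and Sparcl1 had no entry. Alternatives were quantile normalization, normexp correction (offset 50, on median signals), the deposited table, a floor, a filter on dim probes, mean of probes, the slide as a block, each array left out, 1 fit over 12 arrays and the methods' t-test, and, chosen after seeing the data, marked spots kept and slide 1 left out. Replicate numbers marked the slides, and 12 of 18 pairs of same-numbered arrays deviated together with a correlation over 0.1 (range -0.23 to 0.68).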

Additional observations from a re-analysis of the deposited data

Results flagged for a closer look

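Itga8, the integrin subunit that binds fibronectin and tenascin C, had a passage change that differed between the lines in the main fit. It was the 1 gene called for the interaction among the 60 list genes, against 0.616% of all genes. The interaction term, the LM8 change minus the Dunn change, was -2.05 (SE 0.34, limma adjusted p = 0.0395 over all probes and all 12 arrays). The levels were higher in late than in early Dunn by 1.6 (SE 0.30), with 1.61, 1.86 and 1.33 within slides, and the LM8 difference was -0.46 (SE 0.23), with -0.95, -0.22 and -0.19, so 3 of 3 slides had each sign. Neither change alone passed in limma, with adjusted p of 0.405 and 0.300. The interaction passed under 7 of 21 alternatives, with the same sign under all of them, and not with the slide as a block (adjusted p = 0.0609) or without slide 1 (adjusted p = 0.236).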

How the results depend on the processing

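Over the 5 comparisons, 38 differences of members were recomputed, giving 675 values, of which 599 moved by less than the spread between replicates and 76 by more. A member entered a comparison if it was well above background on every measured array of at least 1 of its groups. Thbs4 and Postn therefore never entered, and Thbs2 did so for the LM8 passages, the early lines and the interaction. No called difference changed sign, and 29 values did, in 11 differences of Comp, Fn1, Sparc, Tnc, Thbs3 and Sparcl1. The largest of these differences were those of Comp for the interaction, which went from -0.77 to 0.08 with the floor and 0.23 with normexp, and of Fn1 at early passage, from -0.72 to 0.77 with the deposited table. The Thbs2 difference between the LM8 passages ran from -7.90 to -7.20 with 1 array left out, and was -2.98 with the floor and -3.53 with normexp, which raise dim signals by construction. In the other cases the cause was not tested. Dim arrays limit what a difference can show below background.

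Counts moved as follows, for members called, members by the 2-fold rule and list genes, which were 0, 1 and 0 for the Dunn passages, 1, 1 and 8 for the LM8 passages, 2, 5 and 7 at early passage, 2, 4 and 10 at late passage, and 0, 2 and 1 for the interaction. The share of all genes called under each alternative, or with 1 array left out, is not given here. These counts therefore show only how the calls depend on the setting, and are not read as a property of the members or lists. With 1 fit over 12 arrays members called were 4 at late passage and 1 for Dunn, by the 2-fold rule 2 for Dunn, and list genes 17 at early passage, 3 for Dunn and 3 for LM8. With the deposited table members called were 1 at late passage, by the 2-fold rule 4 for the interaction and 3 for Dunn, and list genes 12 early, 3 late, 0 for the interaction and 4 for LM8. With marked spots kept members called were 1 early and 1 late. With the floor members called were 4 late and 1 for the interaction, by the 2-fold rule 3 early and 2 for Dunn, and list genes 20 early, 16 late, 3 for Dunn and 4 for LM8. With normexp members called were 4 early and 1 late, by the 2-fold rule 2 for Dunn, and list genes 34 early, 0 for the interaction and 4 for LM8. Over probes well above background members called were 4 late, 1 for the interaction and 2 for LM8, by the 2-fold rule 3 early and 2 for Dunn, and list genes 20 early, 17 late and 3 for Dunn. With quantile normalization members called were 1 for the interaction and 2 for LM8, by the 2-fold rule 2 for Dunn, and list genes 16 early and 1 for Dunn. With the replicate block members called were 1 early and 0 late, by the 2-fold rule 3 for Dunn and 6 late, and list genes 2 early, 0 late, 0 for the interaction and 5 for LM8. By the methods' t-test members called were 1 early and 1 late, by the 2-fold rule 3 early, and list genes 4 for LM8. Without slide 1 members called were 1 early, by the 2-fold rule 3 for Dunn and 3 for the interaction, and list genes 4 early, 0 for the interaction and 2 for LM8.

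With 1 array left out, members called ran from 0 to 0 for Dunn, 1 to 1 for LM8, 0 to 4 early, 0 to 4 late and 0 to 1 for the interaction, members by the 2-fold rule from 1 to 2, 1 to 1, 3 to 5, 3 to 4 and 2 to 3, and list genes from 0 to 0, 5 to 8, 1 to 33, 2 to 13 and 0 to 2. The list count at early passage was 33 without the second early Dunn array.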
